A study of Homo sapiens with 6 samples.

Results

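SOX transcription factors were examined in WM164, a human melanoma cell line with the BRAF V600E mutation. They were the 10 genes SOX2, SOX4, SOX5, SOX6, SOX8, SOX9, SOX10, SOX11, SOX12 and SOX13, taken by gene symbol from a table of 60504 genes, and all 10 symbols were found. The 6 RNA-seq libraries came from cells with an empty expression vector (EV, 3 libraries) or an HDAC8 expression vector (3 libraries). Per the methods of the study, the plasmids were transfected and cells were kept in hygromycin, and whether the lines were single clones is not stated. HDAC8 is a class I histone deacetylase, and the comparison asked how its introduction changes gene expression. Nothing states that the 3 libraries of a group came from separate cultures, so p-values measure only the spread between these libraries.

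SOX proteins share an HMG box, a DNA-binding domain that enters the minor groove and bends the DNA. They are sorted into subgroups by the similarity of this domain. SOXE factors (SOX8, SOX9, SOX10) act in the neural crest, the embryonic tissue that gives rise to melanocytes, and SOX10 activates MITF and other melanocyte genes. SOX2 (SOXB1) maintains neural and embryonic stem cells. SOXC factors (SOX4, SOX11, SOX12) act in neuronal progenitors, and SOXD factors (SOX5, SOX6, SOX13) have no known transactivation domain and work beside other SOX factors.

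Total counts ran from 34741083 to 42041462 per library and overlapped between the groups. The HDAC8 transcript itself had 383.8, 404.4 and 478.8 normalized counts (counts divided by the DESeq2 size factor of the library) in EV and 484.8, 445.5 and 473.7 in the libraries labelled HDAC8. These overlapped, and the DESeq2 adjusted p was 0.856. It therefore does not check the labels, and directions are given by label alone, HDAC8 relative to EV. Within that group, HDAC8 1 stood apart from the others: chi-square over degrees of freedom across genes was 167.6 and 112 for its pairs, against 27.6 for HDAC8 2 with HDAC8 3. Mitochondrially encoded transcripts took 9.66% to 12.8% of counts in EV and 4.46% to 7.94% in the libraries labelled HDAC8. Of 9 melanoma markers, 8 reached at least 5 CPM (counts scaled to the library total) in some library, and their summed level was 6711.9 to 8478.1 CPM in EV and 3612.0 to 5133.8 CPM in those labelled HDAC8, with 6 of the 9 called lower. Marker sums for endothelial, blood, keratinocyte and neuronal cells stayed at or under 11.3 CPM in every library, and CDH5 and KRT1 had no count anywhere. Fibroblast markers summed to 63.7 to 79 CPM in EV and 40.9 to 63 CPM in the libraries labelled HDAC8, with DCN at 0 throughout and 5 of the 7 under 5 CPM. LUM, with means of 2462.1 and 1629.4 normalized counts, made up most of that sum and was not called, while PDGFRA was called higher (log2 fold change 1.16, DESeq2 adjusted p = 0.0377). LUM and PDGFRA were picked out after their values were seen. CD3E, a T cell receptor component picked out after its values were seen, had no count in EV and 50.1 to 91.1 normalized counts in the libraries labelled HDAC8, while the pan-leukocyte gene PTPRC had 2.6 in HDAC8 1 and none elsewhere. The part of these library differences in the SOX results was not tested. A fit without mitochondrial genes kept 26145 of the 26162 genes, and all called members kept their call. With so few genes removed this fit could hardly differ, so it does not test that part.

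The DNA just before the transcription start is shown for SOX2 and SOX13, the called members with an entry in the RefSeq promoter table (GRCh38.p14), and for SOX4, which lay next to the threshold. Entries existed for 6 members (SOX2, SOX4, SOX5, SOX6, SOX12 and SOX13). Each line gives the 250 bases before the start, 5′ to 3′ on the plus strand, on which all 3 genes lie. Capitals mark matches, on either strand, to ACAAAG or ACAATG (forms of the SOX site), TGANTCA (AP-1) and GGAATG (TEAD). They also mark, on either strand, CATGTG, which is the core of the MITF M-box and not the whole of it. No matches overlapped in these lines.
SOX2, chr3:181711675-181711924: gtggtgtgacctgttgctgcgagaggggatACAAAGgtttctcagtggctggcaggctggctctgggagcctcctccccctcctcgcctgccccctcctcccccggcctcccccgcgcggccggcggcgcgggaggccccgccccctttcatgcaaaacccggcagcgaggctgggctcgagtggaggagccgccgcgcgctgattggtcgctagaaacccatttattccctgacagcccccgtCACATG
SOX13, chr1:204072865-204073114: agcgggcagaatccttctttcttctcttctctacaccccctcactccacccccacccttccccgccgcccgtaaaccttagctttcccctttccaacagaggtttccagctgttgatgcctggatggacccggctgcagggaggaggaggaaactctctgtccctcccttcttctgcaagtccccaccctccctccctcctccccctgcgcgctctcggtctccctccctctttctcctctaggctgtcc
SOX4, chr6:21593501-21593750: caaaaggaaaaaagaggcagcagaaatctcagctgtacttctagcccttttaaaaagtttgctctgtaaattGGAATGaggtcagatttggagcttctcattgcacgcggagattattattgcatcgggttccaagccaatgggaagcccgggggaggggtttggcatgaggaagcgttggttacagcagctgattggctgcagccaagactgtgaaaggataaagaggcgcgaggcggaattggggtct
The SOX2 window held 1 ACAAAG and 1 CATGTG, the latter on the reverse strand. The SOX4 window held 1 GGAATG, and the SOX13 window held none of the 5 motifs. Among all 35116 promoter windows of this length, ACAAAG was found in 13.7%, ACAATG in 9.29%, TGANTCA in 6.57%, GGAATG in 11.9% and CATGTG in 9.42%. These matches are descriptions of the sequence only. GC content was 68.8% in the SOX2 window, 60.8% in the SOX13 window and 48.8% in the SOX4 window, with a median of 58% over all windows.

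Among the 10 members, SOX9 and SOX2 were higher and SOX13 was lower in the libraries labelled HDAC8. SOX9 rose 2.67-fold, SOX2 went from no counts to a low level, and SOX13 fell to 0.601 of its EV level. SOX4, SOX5, SOX6, SOX8, SOX10 and SOX12 did not pass the test, and SOX11 had no count in any library. A gene was called where the DESeq2 adjusted p was under 0.05 and the log2 fold change was 0.58 or more in either direction. By that rule 3 of the 9 members with an adjusted p were called, 2 higher and 1 lower. Of all 21021 genes with an adjusted p, 11.0% were called, 5.57% higher and 5.44% lower. The groups did not overlap in 6 of these 9 members, 3 higher and 3 lower. Among the 26162 genes in the fit this held for 24.0%, or 11.3% higher and 12.7% lower. The median log2 fold change of the 9 members was -0.03, with 4 positive and 5 negative, and that of all genes with an adjusted p was -0.00.

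**Figure D1:**
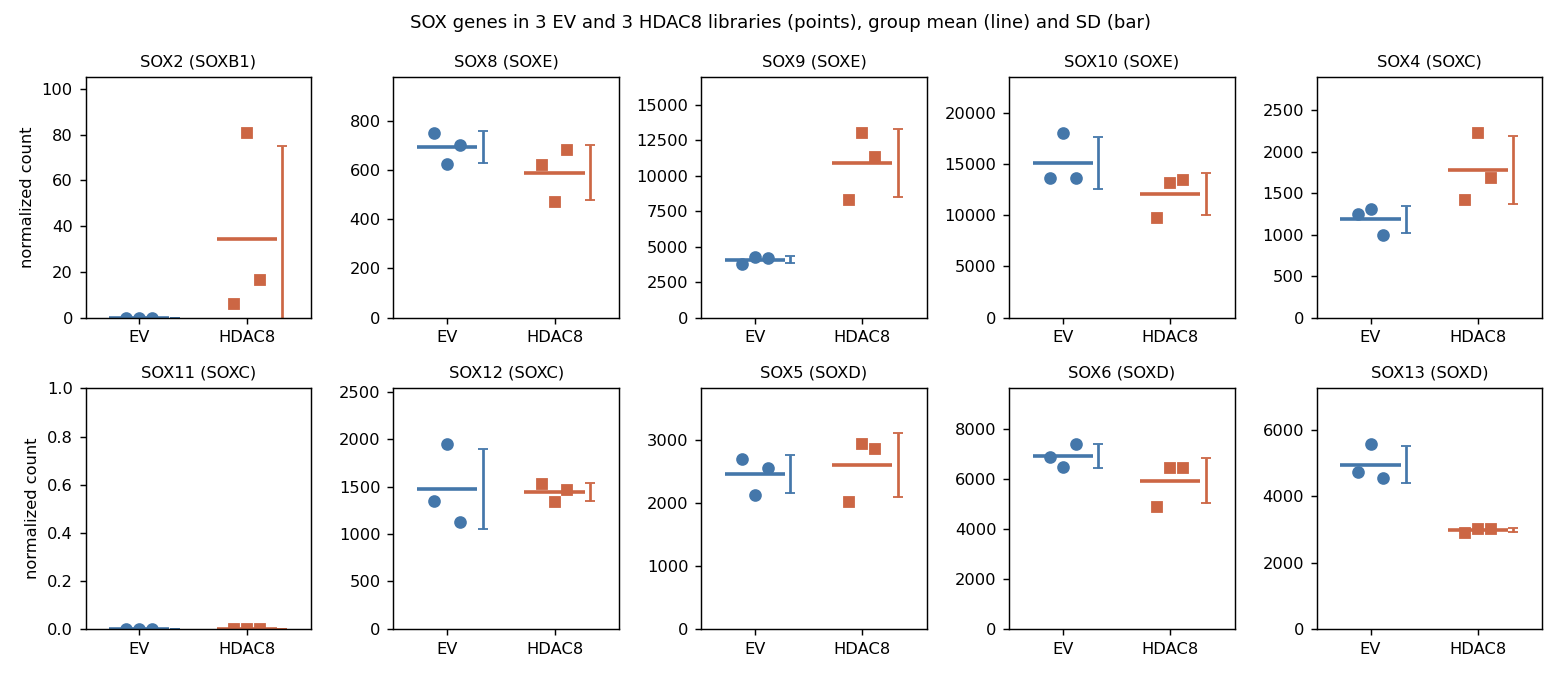
Normalized counts of the 10 SOX genes, with a linear axis from 0 in each panel. Circles are the 3 EV libraries and squares the 3 libraries labelled HDAC8, with the group mean as a horizontal line and the SD as a bar at the side (cut at 0 for SOX2). SOX9 (8300.3 to 13044.6 against 3779.2 to 4281.2) and SOX13 (2901.3 to 3027.3 against 4552.3 to 5578.4) separate the groups, and SOX11 is at 0 throughout.

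Of the SOXE genes, SOX10 is the factor on which the melanocyte lineage depends, SOX9 also directs cartilage formation, and SOX8 overlaps with both in function. SOX9 (ENSG00000125398, GRCh38 chromosome 17, 72121020 to 72126416, plus strand) had 3779.2, 4281.2 and 4192.7 normalized counts in EV and 8300.3, 13044.6 and 11324.0 under the HDAC8 label. The groups were far apart, and the lowest library labelled HDAC8 lay well above the highest EV library. Means were 4084.3 ± 268.0 and 10889.6 ± 2401.8 (SD, n = 3). SOX9 thus rose by 1.41 ± 0.17 (SE) on the log2 scale, with a 95% interval of 2.11- to 3.36-fold and a DESeq2 adjusted p of 1.71e-14. SOX9 was called in all 16 alternatives, with log2 fold changes from 1.27 to 1.57.

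SOX10 (ENSG00000100146, chromosome 22, 37970686 to 37987422, minus strand) had 13659.1, 18067.9 and 13633.2 normalized counts in EV and 9685.5, 13104.0 and 13394.1 in the libraries labelled HDAC8. The groups only just missed each other, with EV 2 high and HDAC8 1 low. SOX10 did not pass the test, with a log2 fold change of -0.33 ± 0.17 (SE) and a DESeq2 adjusted p of 0.211. Its fold change of 0.798 had a 95% interval from 0.636 to 1.00. SOX10 lies within the locus of POLR2F, an RNA polymerase subunit gene on the opposite strand, and it was the sole member whose expected counts were not whole numbers, in all 6 libraries. The counting is not stated to use strand, so reads of these genes may not be told apart. POLR2F had 1823.5, 2101.4 and 1550.6 normalized counts in EV and 2809.8, 1245.4 and 1599.7 in the libraries labelled HDAC8. The means were 1825.2 and 1884.9 (log2 fold change 0.05, DESeq2 adjusted p = 0.963). POLR2F was thus highest in HDAC8 1, the library in which SOX10 was lowest. Whether reads were assigned to the wrong gene was not tested.

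SOX8 (ENSG00000005513, chromosome 16, 981770 to 986979, plus strand) was the scarcest SOXE transcript. It had 751.8, 623.9 and 700.4 normalized counts in EV and 618.2, 468.0 and 682.8 in the libraries labelled HDAC8. The groups overlapped, and the log2 fold change of -0.23 (DESeq2 adjusted p = 0.706) had a 95% interval from -0.75 to 0.28.

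The balance of SOX9 and SOX10 within a library needs no scaling between libraries. On the scale of counts per kilobase of transcript, the ratio of SOX9 to SOX10 was 0.203, 0.174 and 0.226 in EV and 0.629, 0.731 and 0.62 in those labelled HDAC8. SOX10 thus remained above SOX9 in all 6 libraries, and the ratio was higher in every library labelled HDAC8. The mean ratio was 0.201 ± 0.026 and 0.66 ± 0.0613 (SD, n = 3), a difference of 1.72 on the log2 scale (two-sided exact permutation p = 0.1, the smallest that 3 against 3 libraries allow).

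SOX2, the SOXB1 member, is kept by stem cells of the embryo and the nervous system. SOX2 (ENSG00000181449, chromosome 3, 181711925 to 181714436, plus strand) was at 0 throughout EV, with expected counts of 7, 79 and 15 under the HDAC8 label, or 6.0, 80.9 and 16.3 normalized counts. All 3 libraries labelled HDAC8 had reads, but HDAC8 2 held 78.2% of the counts of the group. Exact 95% Poisson intervals of these counts were 2.81 to 14.4, 62.5 to 98.5 and 8.4 to 24.7, and that of a count of 0 reached 3.69. Bounds on folds used a floor of 3 counts in each EV library, which is a one-sided 95% limit and so lies below the end of that interval. Intervals and floors cover counting error only. Against the floor, the mean of SOX2 under the HDAC8 label was at least 10.9-fold higher, or 3.55-fold from HDAC8 1 and HDAC8 3 alone. These bounds cover the EV counts only and take the mean as observed. The interval of HDAC8 1, from 2.81, reaches below the 3.69 of a count of 0. The DESeq2 adjusted p was 0.00246, and edgeR's quasi-likelihood test, which called 8.12% of all genes in either direction, also called SOX2 (adjusted p = 0.0234). Without HDAC8 2, DESeq2 gave no adjusted p for SOX2 and edgeR did not call it (adjusted p = 0.388). SOX2 lies inside the locus of its host transcript SOX2-OT, which had no count in any library.

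The SOXC genes SOX4 and SOX12 were at similar levels, and SOX11 was not detected. SOX4 (ENSG00000124766, chromosome 6, 21593751 to 21598619, plus strand), a progenitor factor also active in many tumours, had 1245.7, 1305.6 and 997.9 normalized counts in EV and 1422.0, 2228.5 and 1675.9 in the libraries labelled HDAC8. Every library labelled HDAC8 was above every EV library, with HDAC8 2 the highest. The difference of 0.59 ± 0.22 (SE) on the log2 scale had a DESeq2 adjusted p of 0.0612, so SOX4 was just outside the threshold. SOX4 was called with total-count size factors (DESeq2 adjusted p = 0.0387), with a minimum of 10 counts per library (0.0335) and without HDAC8 1 (0.0058), while without HDAC8 2 the log2 fold change was 0.39 (0.302).

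SOX12 (ENSG00000177732, chromosome 20, 325552 to 330224, plus strand), the least studied SOXC factor, had 1352.7, 1950.1 and 1125.0 normalized counts in EV and 1527.2, 1338.6 and 1462.5 in the libraries labelled HDAC8. The EV libraries spanned those labelled HDAC8. The log2 fold change was -0.03 (DESeq2 adjusted p = 0.97, 95% interval from -0.48 to 0.42) and took either sign among the alternatives. SOX11 (ENSG00000176887, chromosome 2, 5692384 to 5701385, plus strand), which promotes neuronal differentiation, had a count of 0 in all 6 libraries, where the floor of 3 counts corresponds to 2.57 to 3.27 normalized counts.

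Of the SOXD genes, SOX13 was the member that fell. SOX13 (ENSG00000143842, chromosome 1, 204073115 to 204127743, plus strand) had 4743.9, 5578.4 and 4552.3 normalized counts in EV and 2901.3, 3007.9 and 3027.3 in the libraries labelled HDAC8. The latter lay close together and all below EV. Means were 4958.2 ± 545.6 and 2978.8 ± 67.9 (SD, n = 3). SOX13 thus fell by 0.74 ± 0.15 (SE) on the log2 scale, to between 0.49 and 0.736 of the EV level (95% interval, DESeq2 adjusted p = 2.57e-05). Alternatives gave log2 fold changes from -0.85 to -0.64. When DESeq2 tested for a change beyond 0.58 rather than beyond 0, SOX13 was not called (adjusted p = 1).

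SOX5 and SOX6 bind DNA as dimers and act with SOX9 in cartilage, and SOX5 can counteract SOX10 at melanocyte genes. SOX6 (ENSG00000110693, chromosome 11, 15966449 to 16739591, minus strand) had 6890.4, 6474.0 and 7409.1 normalized counts in EV and 4898.8, 6455.2 and 6458.6 in the libraries labelled HDAC8. The groups were separated by a narrow gap, with HDAC8 1 the lowest. The log2 fold change of -0.22 (DESeq2 adjusted p = 0.428) had a 95% interval from -0.52 to 0.08. SOX5 (ENSG00000134532, chromosome 12, 23529504 to 24562544, minus strand) had 2700.2, 2114.4 and 2545.6 normalized counts in EV and 2015.4, 2931.1 and 2854.1 in the libraries labelled HDAC8. The groups overlapped, and the log2 fold change of 0.08 (DESeq2 adjusted p = 0.891) had a 95% interval from -0.30 to 0.46. SOX5P1, a processed pseudogene of SOX5, had 29.1 normalized counts in HDAC8 1 and none elsewhere.

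Within each library SOX13 was compared with the other SOXD genes. Per kilobase of transcript, the ratio of SOX13 to SOX5 was 3.05, 4.58 and 3.1 in EV and 2.5, 1.78 and 1.84 in the libraries labelled HDAC8. The ratio of SOX13 to SOX6 was 1.57, 1.97 and 1.4 in EV and 1.35, 1.06 and 1.07 in those labelled HDAC8. Both ratios were lower in every library labelled HDAC8, with log2 differences of -0.80 and -0.50 (two-sided exact permutation p = 0.1 for each, the smallest possible here, over 4 such ratios). The fourth ratio, SOX4 to SOX12, was 0.884, 0.643 and 0.851 in EV and 0.894, 1.6 and 1.1 in the libraries labelled HDAC8, a log2 difference of 0.57 with the same exact permutation p of 0.1.

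**Figure D2:**
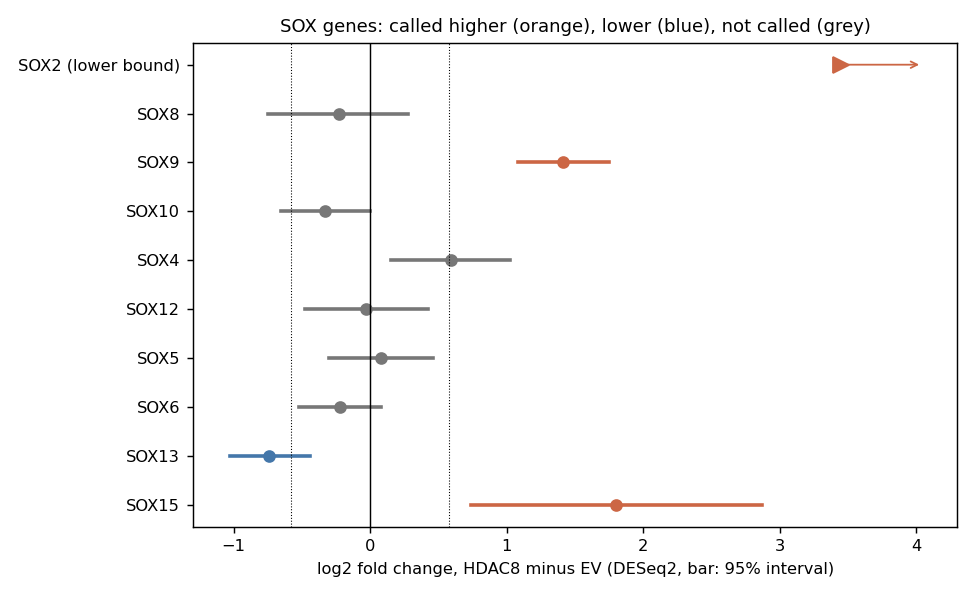
Log2 fold change of each SOX gene, HDAC8 minus EV, as fitted by DESeq2, with its 95% interval as a bar and dotted lines at the fold change minimum of 0.58 in either direction. SOX2 is drawn as a lower bound, its observed mean under the HDAC8 label against the floor of 3 counts in EV (10.9-fold). SOX9 and SOX15 lie to the right of the dotted line, SOX13 to the left with an interval that crosses it, and SOX4 lies on it.

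To set the members beside each other, levels were expressed as normalized counts per kilobase of the canonical transcript, which ignores the mix of isoforms. In EV the order was SOX10 (5240.9 per kilobase), SOX13 (1216.4), SOX9 (1039.0), SOX6 (744.3), SOX5 (346.7), SOX12 (315.8), SOX4 (243.0) and SOX8 (224.2), followed by SOX2 and SOX11 at 0. Neighbours from SOX5 down to SOX8 overlapped in their library ranges, and the ranges of the other neighbours with counts did not. In the libraries labelled HDAC8 the order was SOX10 (4180.7), SOX9 (2770.2), SOX13 (730.8), SOX6 (638.2), SOX5 (367.5), SOX4 (364.7), SOX12 (308.7), SOX8 (191.0), SOX2 (13.7) and SOX11. There, SOX5 with SOX4 and SOX4 with SOX12 overlapped. SOX9 moved above SOX13 in this order, and SOX10 kept the highest level in every library. Among protein-coding genes, the per-kilobase level of SOX10 stood at percentile 98.6 in EV and 98.2 in the libraries labelled HDAC8, SOX9 at 89.5 and 96.7, SOX13 at 91.2 and 84.1, and SOX2 at 0.0 and 36.7.

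As a share of the summed per-kilobase level of the 10 genes, SOX10 made up 55.7% ± 2.91 in EV and 43.7% ± 1.43 in the libraries labelled HDAC8 (SD, n = 3). SOX9 made up 11.1% ± 0.981 and 28.8% ± 2.17, and SOX13 13% ± 0.253 and 7.77% ± 1.17 (SD, n = 3). SOX9 thus took a larger share in each library labelled HDAC8, and SOX10 and SOX13 a smaller one. Because shares have a fixed total, a larger SOX9 share lowers the others, and the level of SOX10 itself was not called. The summed level was 9370.3 ± 1067.3 per kilobase in EV and 9565.4 ± 1529.6 in the libraries labelled HDAC8 (SD, n = 3), so the totals overlapped between groups. In bulk RNA, fewer cells with a transcript and less of it per cell cannot be told apart.

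**Figure D3:**
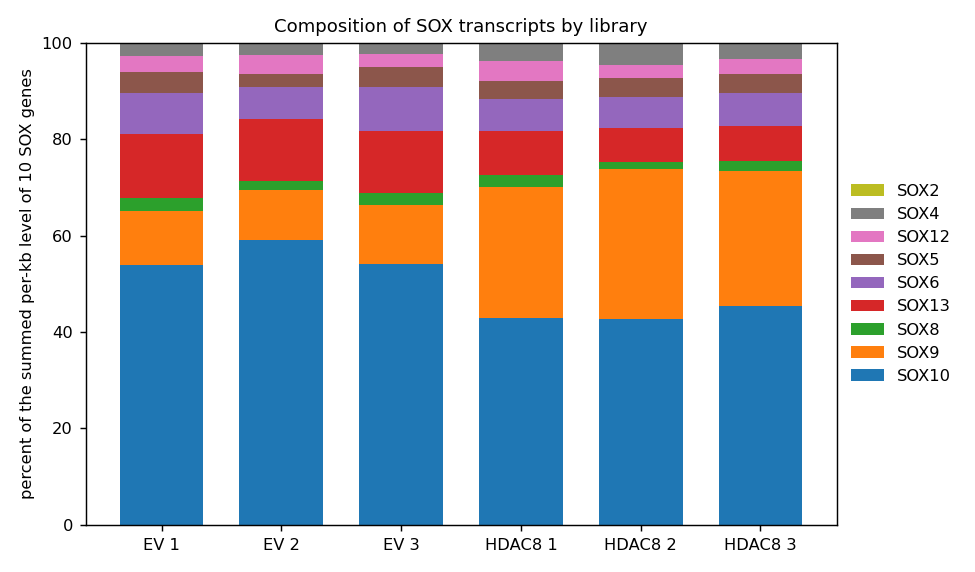
Stacked bars give each gene's percent of the summed normalized counts per kilobase of the 10 SOX genes, for each of the 6 libraries, with SOX11 at 0. The SOX9 segment is 10.3% to 12.2% in EV and 27% to 31.2% in the libraries labelled HDAC8, and the SOX2 segment, at most 0.303%, is too thin to see.

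Sequence features of the 10 members, SOX11 included, were set beside those of all genes tested, which include noncoding genes. SOX2, SOX4, SOX11 and SOX12 have a single exon in the canonical transcript of GENCODE 44, so 40% of the members are of this kind, against 17.7% of all genes tested. The median canonical transcript was 4374 bases long with 51.8% GC, against 2480 bases and 48.2% over all genes tested. Members ran from 39.2% GC in SOX5 to 64.0% in SOX8. With normalization within bins of GC content, SOX2, SOX9 and SOX13 kept their calls, and SOX4 had a log2 fold change of 0.53.

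Transcripts that overlap the members were scarce, POLR2F and C11orf58 apart. SOX9-AS1, antisense to SOX9, had 23.1, 4.7 and 22.7 normalized counts in EV and 71.0, 26.6 and 40.3 in the libraries labelled HDAC8. The groups did not overlap, but the log2 fold change of 1.46 (SE 1.05) had a DESeq2 adjusted p of 0.457. C11orf58, on the opposite strand at the SOX6 locus, had means of 1418.4 and 1031.1 (log2 fold change -0.46, DESeq2 adjusted p = 0.109). SOX5-AS1 had means of 12.6 in EV and 5.5 in the libraries labelled HDAC8.

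The other SOX genes were mostly silent. SOX14, SOX17 and SOX21 had no count in any library, and neither had SOX1-OT. SOX7 had 2.8 normalized counts in EV 2 alone, SOX3 had 8.9 in EV 3 alone, SOX30 had 13.1 in HDAC8 3 alone, and SOX1 had 12.6 in EV 1, 8.4 in EV 2 and none elsewhere. SOX21-AS1 had 4.4 normalized counts in HDAC8 3 and none elsewhere. SOX18, a factor of blood and lymph vessel endothelium, had 0.0 to 58.8 normalized counts with overlapping groups (DESeq2 adjusted p = 0.864).

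SOX15 was the gene outside the 10 members that was called. SOX15 (ENSG00000129194, chromosome 17, 7588178 to 7590094, minus strand), a SOXG factor known from muscle progenitors, had 41.9, 122.3 and 51.2 normalized counts in EV and 318.1, 258.1 and 176.4 in the libraries labelled HDAC8. The groups did not overlap, with EV 2 the highest of EV. Mean levels were 71.8 and 250.9, and SOX15 rose by 1.80 ± 0.54 (SE) on the log2 scale (DESeq2 adjusted p = 0.0106). The call was lost without EV 1 (DESeq2 adjusted p = 0.085), EV 3 (0.0794) or HDAC8 1 (0.0697). MPDU1, which overlaps SOX15 on the opposite strand, had means of 1990.0 and 2977.0 normalized counts (log2 fold change 0.58, DESeq2 adjusted p = 0.0194).

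**Figure D4:**
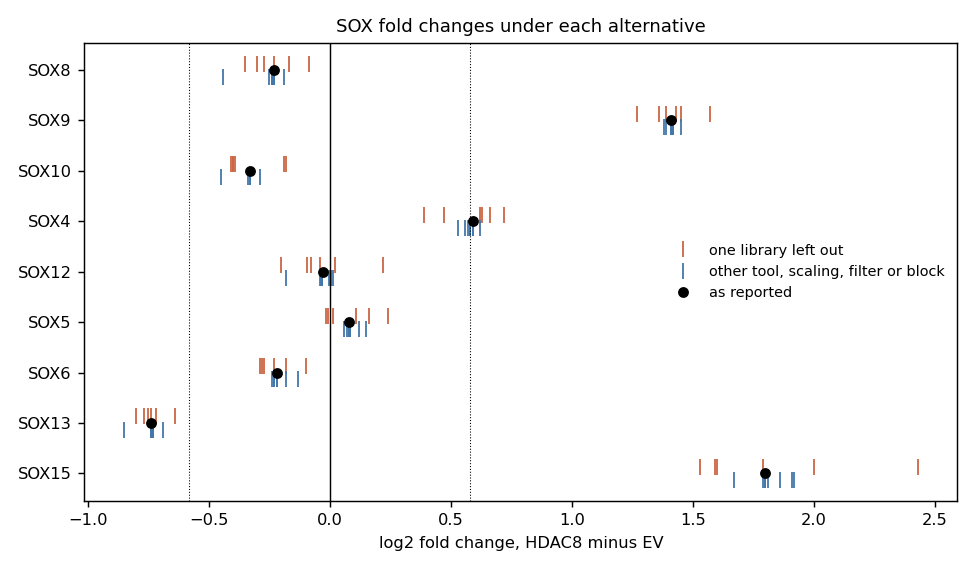
Log2 fold change of 9 SOX genes under each alternative, HDAC8 minus EV, with the reported value as a black dot, fits that leave out 1 library as orange ticks and other tools, scalings, filters or the replicate block as blue ticks. Dotted lines mark 0.58 in either direction. All ticks of SOX9 and SOX13 lie beyond a dotted line, SOX4 ticks lie on both sides of it, and those of SOX5 and SOX12 on both sides of 0.

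Genes known as targets or partners of SOX factors were counted in the same fit. Of all genes with an adjusted p there, 5.57% were called higher and 5.44% lower, with a median log2 fold change of -0.00. Of 15 SOX10 targets in melanocytes and Schwann cells, 14 had an adjusted p, with 1 called higher and 3 lower and a median log2 fold change of -0.19. TYR and DCT, enzymes of melanin synthesis, fell from 17225.7 ± 750.3 to 5688.1 ± 721.7 and from 18919.5 ± 1318.3 to 8950.0 ± 1456.6 normalized counts (SD, n = 3), with log2 fold changes of -1.60 and -1.08 (DESeq2 adjusted p = 3.64e-28 and 4.04e-11). S100B, a calcium-binding protein of melanocytes and Schwann cells, fell from 1226.8 ± 25.8 to 775.1 ± 100.7 (SD, n = 3), with a log2 fold change of -0.66 (DESeq2 adjusted p = 0.0188), a call kept in 8 of 16 alternatives. EDNRB, the endothelin receptor of the melanocyte lineage, rose from 1932.0 ± 137.4 to 3488.8 ± 368.7 (SD, n = 3), with a log2 fold change of 0.85 (DESeq2 adjusted p = 7.11e-06). Abundant targets that did not pass included MITF, the master regulator of melanocytes (log2 fold change -0.20), and ERBB3, a neuregulin receptor (-0.18).

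Of 12 cartilage genes regulated by SOX9 with SOX5 and SOX6, 10 had an adjusted p, with 2 called higher, 0 lower and a median log2 fold change of 0.83. That median fell between ACAN (0.75, SE 2.45) and COL2A1 (0.91, SE 1.37), both scarce and with overlapping groups. It therefore does not measure a shift of the list. COL11A2, a fibril collagen chain, had 453.0, 290.5 and 354.6 normalized counts in EV and 2170.2, 1012.9 and 1067.2 in the libraries labelled HDAC8. All of the latter were above EV and HDAC8 1 was the highest (log2 fold change 1.95, SE 0.31, DESeq2 adjusted p = 3.00e-08). Among the libraries labelled HDAC8, SOX9 was lowest in HDAC8 1 (8300.3 normalized counts, against 13044.6 and 11324.0). Whether the cartilage genes follow SOX9 was not tested. COL9A2, a chain of collagen IX, had 153.1, 185.9 and 124.1 in EV and 600.3, 340.0 and 270.1 in those labelled HDAC8. COL9A2 rose by 1.39 ± 0.41 (SE) on the log2 scale (DESeq2 adjusted p = 0.00968), a call that was lost without HDAC8 1 (0.12), EV 1 (0.0502) or EV 3 (0.0783). COL9A3 was far more abundant, at 10449.3, 13238.5 and 10203.0 in EV and 29948.3, 12426.0 and 14229.3 in those labelled HDAC8, and with HDAC8 1 alone well above EV it did not pass (log2 fold change 0.74, DESeq2 adjusted p = 0.322). HAPLN1 and COL9A1 had log2 fold changes of -0.55 and 1.12 (DESeq2 adjusted p = 0.43 and 0.162). COL2A1 and ACAN, the defining cartilage matrix genes, stayed at or under 44.6 normalized counts in every library.

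Of 6 neuronal genes regulated by SOX4 and SOX11, 4 had an adjusted p, and 0 were called in either direction (median log2 fold change -0.10). By edgeR and at an unadjusted DESeq2 p under 0.05, 0 were called as well. TUBB3, a neuronal tubulin, had a log2 fold change of -0.20, the actin-binding DBN1 0.27 and the Hippo pathway factor TEAD2 -0.04. Of 11 pluripotency partners or targets of SOX2, 2 had an adjusted p and 0 were called by DESeq2, by edgeR or at an unadjusted p. UTF1 and FGF4 had no count in any library. KLF4 and POU5F1, both reprogramming factors, had 359.5 and 26.9 normalized counts in EV and 301.5 and 64.1 in the libraries labelled HDAC8 (DESeq2 adjusted p = 0.751 and 0.452). LIN28A, an RNA-binding protein of stem cells, had no count in EV and 0.0, 29.7 and 2.2 normalized counts in HDAC8 1, HDAC8 2 and HDAC8 3.

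Of 16 regulators of transcription that act beside SOX factors in the neural crest, 14 had an adjusted p. Of these, 1 was called higher and 4 lower, with a median log2 fold change of 0.16. SNAI2, a repressor of epithelial genes, had 762.3, 679.9 and 851.1 normalized counts in EV and 133.4, 259.1 and 111.1 in the libraries labelled HDAC8 (log2 fold change -2.19, SE 0.36, DESeq2 adjusted p = 4.16e-08). FOXD3, an early neural crest factor, had 33.6, 124.2 and 68.0 in EV and no count in any library labelled HDAC8. With the EV mean taken as observed, FOXD3 was at least 23.0-fold lower against the floor (DESeq2 adjusted p = 1.47e-06). Both genes were clear of overlap between the groups. LMO4 and ID3, regulators without a DNA-binding domain of their own, fell by 1.08 and 0.76 on the log2 scale (DESeq2 adjusted p = 5.42e-06 and 6.60e-04). ETS1, an ETS family activator, rose from 3923.8 ± 580.6 to 6408.5 ± 1373.8 (SD, n = 3), with a log2 fold change of 0.71 (DESeq2 adjusted p = 0.00219). NR2F2, TFAP2A and PAX3, the most abundant of the rest, had log2 fold changes of -0.18, 0.12 and -0.27 and were not called.

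**Figure D5:**
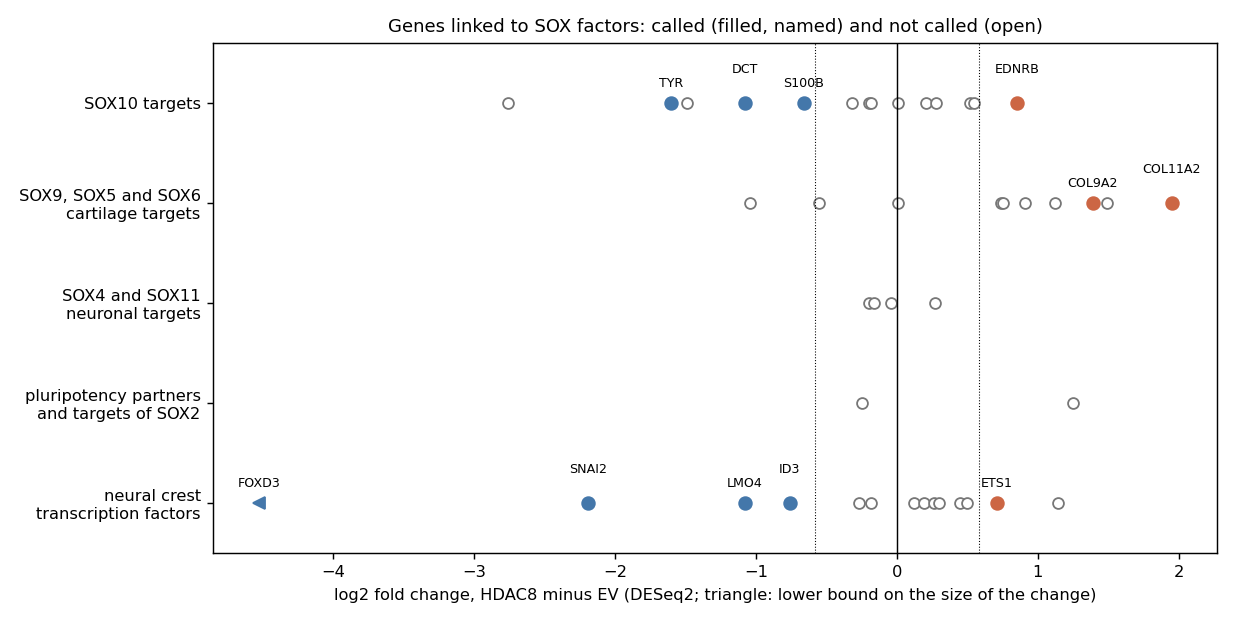
Log2 fold change, HDAC8 minus EV, of the genes with an adjusted p in 5 lists of SOX targets and partners. Filled and named points were called, open points were not, the triangle for FOXD3 is a bound against the floor (23.0-fold), and dotted lines mark 0.58 in either direction. Called genes lie on both sides of 0 among SOX10 targets and neural crest factors, and to the right of 0 among cartilage genes.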

How the data were processed

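Per the labels and the methods of the study, the authors used Trimmomatic on the paired-end reads, then STAR (transcriptome alignment) and RSEM (gene-level estimates). What they deposited are RSEM expected counts, not scaled between libraries, of which 6.82% to 9.48% per library were not whole. Genome build, annotation and strand setting are not given in the sources used here. Positions, exons and transcript lengths come from GENCODE 44 (GRCh38), joined by Ensembl identifier (56558 of 60504 genes).

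Expected counts were rounded, and the groups were fitted with DESeq2 1.42.0 (R 4.3.3, Wald test, two-sided) over the 26162 genes whose counts summed to 10 or more, with its own size factors (0.918 to 1.17), no covariates and Benjamini-Hochberg adjustment over all genes. DESeq2 gave no adjusted p for 5141 genes. The methods of the study name DESeq2 and the same thresholds. Alternatives were edgeR 4.0.16 (quasi-likelihood), limma-voom 3.58.1, other size factors, GC normalization in 20 bins, other filters and thresholds, a fit without mitochondrial genes, a replicate block and each library left out. The fits were tested on simulated data. No library appeared to be deposited more than once, since chi-square divided by its degrees of freedom was 27.6 to 167.6 within groups.

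The members, lists and tests were chosen with earlier results of these data known. Of each list, every called gene and at most the 3 most abundant others were named, along with genes whose overlap or absence is stated, and some items are not reported here. No list was tested as a set, and SRY was left out. Lists were written from general knowledge.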

Additional observations from a re-analysis of the deposited data

How the results depend on the processing

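Of the 9 SOX members with an adjusted p, SOX6, SOX8, SOX9 and SOX10 kept both direction and call in every alternative, and SOX2 did in 14 of the 15 that gave it an adjusted p. Among called members, 0 were lower when DESeq2 tested for a change beyond 0.58, where SOX13 was not called (log2 fold change -0.74), 1 was higher without HDAC8 replicate 2, where SOX2 had no adjusted p, and 3 were higher with total-count size factors, without HDAC8 replicate 1 or at an unadjusted p under 0.05, where SOX4 was added. Across the fits that each left out 1 library, 1 to 3 members were called higher and 1 lower. Over all genes, the test beyond 0.58 called 292 higher and 291 lower, and an unadjusted p under 0.05 called 1839 and 1856. Total-count size factors called 1319 and 1019, against 1170 and 1143 in the reported fit. Without HDAC8 replicate 1 the counts were 1107 and 1378, and without HDAC8 replicate 2 they were 1104 and 1268. The exception for SOX2, chosen after seeing the data, was edgeR without HDAC8 replicate 2, in which it was not called (log2 fold change 6.53, adjusted p = 0.388). A minimum of 10 counts per library removed SOX2 and added SOX4 (adjusted p = 0.0335), which left 2 higher. SOX5 changed sign without EV replicate 2 (-0.015) and without HDAC8 replicate 2 (-0.006), and ran from -0.015 to 0.24 with 1 library left out. SOX12 changed sign with total-count size factors (0.014), with the replicate block (0.004), without EV replicate 2 (0.22) and without HDAC8 replicate 2 (0.022), and ran from -0.20 to 0.22 with 1 library left out. SOX18 changed sign with the block (0.42) and without EV replicate 2 (1.03), and ran from -2.21 to 1.03 with 1 library left out. None of SOX5, SOX12 and SOX18 was called in any fit.

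The same test, which asks more of each gene, called 0 other SOX genes, 0 SOX10 targets and 0 neural crest factors higher, 1 cartilage gene higher and 2 neural crest factors lower. With a minimum of 10 counts per library, and at an unadjusted p under 0.05, 2 neural crest factors were called higher. Of all genes, 1280 and 1839 were called higher by these rules, in that order. With 1 library left out, 0 to 1 other SOX genes, 1 to 2 SOX10 targets and 1 to 3 cartilage genes were called higher. Of all genes, 877 to 1218 were called higher in those fits. Libraries that shared a replicate number did not deviate together (correlations of -0.0273, -0.0663 and 0.0399), so the numbers were not taken as pairs. A fit that adds the replicate block called 1075 genes higher and 1078 lower, against 1170 and 1143, and the called members were 2 higher and 1 lower as before. Total-count size factors shifted the median log2 fold change of all genes to 0.041. Apart from what each alternative removes or asks, the cause of these changes was not tested. Alternatives planned for values without counts did not apply. SOX2 rests on few counts, most of them from HDAC8 replicate 2, without which its bound was 3.55-fold in place of 10.9-fold.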
